A study of Mus musculus with 42 samples.

Results

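H3K27ac was compared between untreated wild-type (WT) mouse macrophages and those given lipopolysaccharide (LPS) for 1 h, over 55565 genomic regions. They were obtained by merging, where they overlapped, the enriched regions of 3 libraries of untreated cells (0 h) and 3 libraries of cells given 100 ng/ml LPS for 1 h, and they involve 6 of the 42 chromatin immunoprecipitation (ChIP-seq) libraries of the study. The cells were bone marrow-derived macrophages of male C57Bl6/J mice aged 6 to 12 weeks, grown for 7 days in medium conditioned by L929 cells, and both groups were WT. By the labels they differ in LPS alone, although their libraries also differ in depth. The study as a whole compared WT with Nur77-deficient (KO) macrophages, which lack the orphan nuclear receptor that the gene Nr4a1 encodes. A region was called promoter when it overlapped the 2500 bp on either side of the start of a protein-coding gene (11396 regions) and distal otherwise (44169 regions). Only the outermost annotated start of each gene was used, so a region at the start of a shorter transcript can count as distal. A distal region carries the name of the nearest gene start, which need not be the gene it acts on.

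H3K27ac, acetylation of lysine 27 of histone H3, is deposited at active promoters and enhancers by the acetyltransferases CBP and p300 and is removed by histone deacetylases. LPS, a bacterial cell wall component, is sensed by TLR4 with its partners MD-2 and CD14. Its adaptors MyD88 and TRIF activate NF-kB, AP-1 and interferon regulatory factors, which bind enhancers that the macrophage lineage factors PU.1 and C/EBP have already opened and also some that gain acetylation only after the stimulus.

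Sequences of promoters and distal windows at which the mark rose or fell are shown first, because the motifs in them are counted over all regions further on. The promoters are the 250 bases before the RefSeq gene start (GRCm38.p6, the assembly behind mm10), written 5′ to 3′ on the strand of the gene. Capitals mark matches on either strand to the AP-1 motif TGANTCA, the CRE motif TGACGTCA, the interferon-stimulated response element (ISRE, searched as GAAA and, after any 2 bases, GAAA again), or the kappaB and CArG consensus sequences. Promoters of Ifnb1 (chr4:88522795-88523044, minus strand), Cxcl10 (chr5:92348890-92349139, minus strand), Nfkbia (chr12:55492648-55492897, minus strand) and Rsad2 (chr12:26456453-26456702, minus strand) stand for genes at which H3K27ac rose.
Ifnb1: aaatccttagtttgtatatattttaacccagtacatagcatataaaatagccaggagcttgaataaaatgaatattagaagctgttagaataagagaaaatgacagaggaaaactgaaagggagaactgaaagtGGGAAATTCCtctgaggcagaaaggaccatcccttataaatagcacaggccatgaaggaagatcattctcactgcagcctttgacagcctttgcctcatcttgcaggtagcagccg
Cxcl10: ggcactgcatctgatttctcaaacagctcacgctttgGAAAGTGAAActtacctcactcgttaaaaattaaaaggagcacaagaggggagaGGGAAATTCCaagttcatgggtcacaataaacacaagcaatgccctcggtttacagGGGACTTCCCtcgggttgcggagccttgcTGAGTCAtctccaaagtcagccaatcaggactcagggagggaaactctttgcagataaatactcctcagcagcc
Nfkbia: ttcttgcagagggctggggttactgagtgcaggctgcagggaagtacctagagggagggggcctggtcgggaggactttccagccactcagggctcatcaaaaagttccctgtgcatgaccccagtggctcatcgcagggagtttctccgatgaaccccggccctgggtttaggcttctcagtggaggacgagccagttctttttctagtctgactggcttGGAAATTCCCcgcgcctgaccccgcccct
Rsad2: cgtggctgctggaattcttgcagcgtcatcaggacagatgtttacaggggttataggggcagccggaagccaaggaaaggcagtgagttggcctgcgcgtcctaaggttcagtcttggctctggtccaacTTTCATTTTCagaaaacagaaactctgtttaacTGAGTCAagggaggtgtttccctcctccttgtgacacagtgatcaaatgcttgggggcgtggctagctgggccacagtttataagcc

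The promoters of Apoe (chr7:19699189-19699438, minus strand), Trem2 (chr17:48346151-48346400, plus strand) and Stab1 (chr14:31168642-31168891, minus strand) stand for genes at which it fell. Those of Apoe and Stab1 held none of these letters, which says nothing about other motifs.
Apoe: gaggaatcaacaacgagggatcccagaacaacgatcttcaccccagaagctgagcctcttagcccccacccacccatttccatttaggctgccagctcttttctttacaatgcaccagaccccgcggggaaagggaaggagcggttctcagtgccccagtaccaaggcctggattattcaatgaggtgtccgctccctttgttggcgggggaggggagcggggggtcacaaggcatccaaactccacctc
Trem2: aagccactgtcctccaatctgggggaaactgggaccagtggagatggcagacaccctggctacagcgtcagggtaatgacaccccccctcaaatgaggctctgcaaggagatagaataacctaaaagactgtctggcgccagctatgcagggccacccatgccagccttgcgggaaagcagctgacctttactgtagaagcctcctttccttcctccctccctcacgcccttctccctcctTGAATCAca
Stab1: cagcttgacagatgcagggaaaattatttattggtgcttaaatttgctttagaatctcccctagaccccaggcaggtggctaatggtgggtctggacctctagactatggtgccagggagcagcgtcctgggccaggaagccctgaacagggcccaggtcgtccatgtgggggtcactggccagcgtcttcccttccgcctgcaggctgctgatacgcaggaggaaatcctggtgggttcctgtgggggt

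Of the distal regions with the largest changes, 4 windows of 200 bases were taken where most kinds of motif lie together, on the plus strand of GRCm38.p6. Windows from regions that rose lie in introns of Mir155hg, the primary transcript of miR-155 (chr16:84709450-84709649), of Nfkb1 (chr3:135670650-135670849) and of Trps1 (chr15:50749984-50750183). A window from a region that fell lies in an intron of Slco2b1 (chr7:99679769-99679968).
Mir155hg: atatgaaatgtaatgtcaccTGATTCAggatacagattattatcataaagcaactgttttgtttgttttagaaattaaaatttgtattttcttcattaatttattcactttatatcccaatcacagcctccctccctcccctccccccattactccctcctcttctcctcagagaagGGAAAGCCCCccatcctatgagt
Nfkb1: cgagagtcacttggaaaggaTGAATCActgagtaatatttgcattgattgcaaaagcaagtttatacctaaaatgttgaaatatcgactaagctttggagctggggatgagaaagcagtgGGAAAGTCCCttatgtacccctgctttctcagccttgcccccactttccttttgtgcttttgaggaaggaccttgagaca
Trps1: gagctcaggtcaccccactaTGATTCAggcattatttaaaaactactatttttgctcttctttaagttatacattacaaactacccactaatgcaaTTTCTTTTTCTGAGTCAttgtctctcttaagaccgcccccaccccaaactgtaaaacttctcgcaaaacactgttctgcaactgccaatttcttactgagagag
Slco2b1: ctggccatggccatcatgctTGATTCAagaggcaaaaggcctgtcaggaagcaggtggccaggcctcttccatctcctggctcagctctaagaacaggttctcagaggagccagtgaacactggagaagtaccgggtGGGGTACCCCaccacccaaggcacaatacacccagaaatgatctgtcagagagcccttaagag

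The files list, for each library, regions that HOMER found and the tags in each, scaled by the authors to 10000000 tags per library (normalized tags); a region that HOMER did not find in a library is listed at 0. The 0 h libraries held 21383639 to 23142120 tags in all. Those at 1 h held 13505272, 14025419 and 20877997, so a window needed 7.84 to 8.15 normalized tags to be found in the 2 shallower ones against 6.05 to 6.71 in the other libraries. Replicates of a group correlated at r = 0.987 to 0.993 across the 27583 regions found in all 6 libraries, and libraries of different groups at 0.789 to 0.806. Of the macrophage markers, all 8 had a promoter region, Spi1 with 6157 and Csf1r with 4716 normalized tags on average at 0 h. No promoter region was found for any of the 5 fibroblast and 4 mast cell markers, nor for 4 of 5 T cell, 3 of 5 B cell, 4 of 7 neutrophil and 2 of 4 dendritic cell markers. Among those that had one, the dendritic cell marker Xcr1 held 583 tags at 0 h and 1072 at 1 h (log2 change 0.87, not called, and 1.14 after centring). The B cell markers Ms4a1 (481 and 309) and Cd22 (109 and 63.4) were not called, nor were S100a8 of neutrophils (39.2 and 17.8) and Lck of T cells (10.6 and 11.7). Camp (neutrophil) was listed at 0 before LPS and held 39.9 tags at 1 h, Zbtb46 (dendritic cell) 0 and 42.8, and Elane (neutrophil) 52.2 and 11.1, and these 3 were called except with a pseudocount of 50. Their part in the results below was not tested.

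To determine where the mark changed, the 45451 regions present in 2 or more libraries of either group were compared with limma on log2(normalized tags + 10). Calls required a log2 change beyond 1 in either direction and a p under 0.05 after Benjamini-Hochberg adjustment. H3K27ac was higher at 1 h in 6835 regions (15.0% of those tested) and lower in 11655 (25.6%). At promoters 1117 of 10868 regions rose (10.3%) and 1289 fell (11.9%), against 5718 (16.5%) and 10366 (30.0%) of 34583 distal regions. The values of the 3 libraries of each group did not overlap in 6793 of the 6835 higher and 11602 of the 11655 lower regions, and in 72.1% of all regions tested. Bulk chromatin does not tell fewer cells of a type from less acetylation per cell. The study's methods call replicates biological, but the labels do not say whether the 3 libraries of a group came from separate mice or cultures. The p-values therefore measure the spread between these libraries, some of which may be technical.

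The balance between gain and loss depends on scaling. The median log2 change was -0.32 over all tested regions, -0.06 over promoter and -0.47 over distal regions. When each library was centred on the median of the regions found in all 6, 52.7% of the calls were higher instead of 37.0%, with 9273 regions higher and 8327 lower. At promoters the share of higher calls went from 46.4% to 67.4%, and the number of lower calls from 1289 to 800. All changes below are therefore on the deposited scale, and calls that centring or quantile normalization removed are named with the gene. A further limit is the input: 61.7% of the regions, among them 77.3% of the higher and 66.3% of the lower promoter regions and 72.7% and 61.4% of the higher and lower distal ones, overlapped a region that HOMER also found in a WT input library, which had no immunoprecipitation. Without these regions 1806 higher and 4411 lower calls were left of 14711 tested.

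Distal regions that rose were largely weak or absent before LPS. Their median went from 3.14 normalized tags at 0 h to 53.4 at 1 h, and 2461 of them (43.0%) were listed at 0 in all 3 libraries at 0 h. Promoter regions that rose already carried the mark, with a median of 99.5 tags at 0 h and 335 at 1 h, and 16.9% were listed at 0 before LPS. Loss left weaker regions, most of them still found in at least 1 library at 1 h. Lower promoters went from a median of 165 to 49.6 tags and lower distal regions from 54.5 to 8.62. Of these, 14.7% and 30.9% were listed at 0 in all 3 libraries at 1 h, and only 71.8% and 46.5% were found in all 6 libraries. Absence here means below the search threshold, which was higher in 2 of the 1 h libraries. Higher regions had a median length of 4032 bp at promoters and 2519 bp at distal sites, against 3027 and 2151.5 bp for lower ones. Distal regions of both directions lay a median of 34.1 kb from the nearest gene start.

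**Figure D1:**
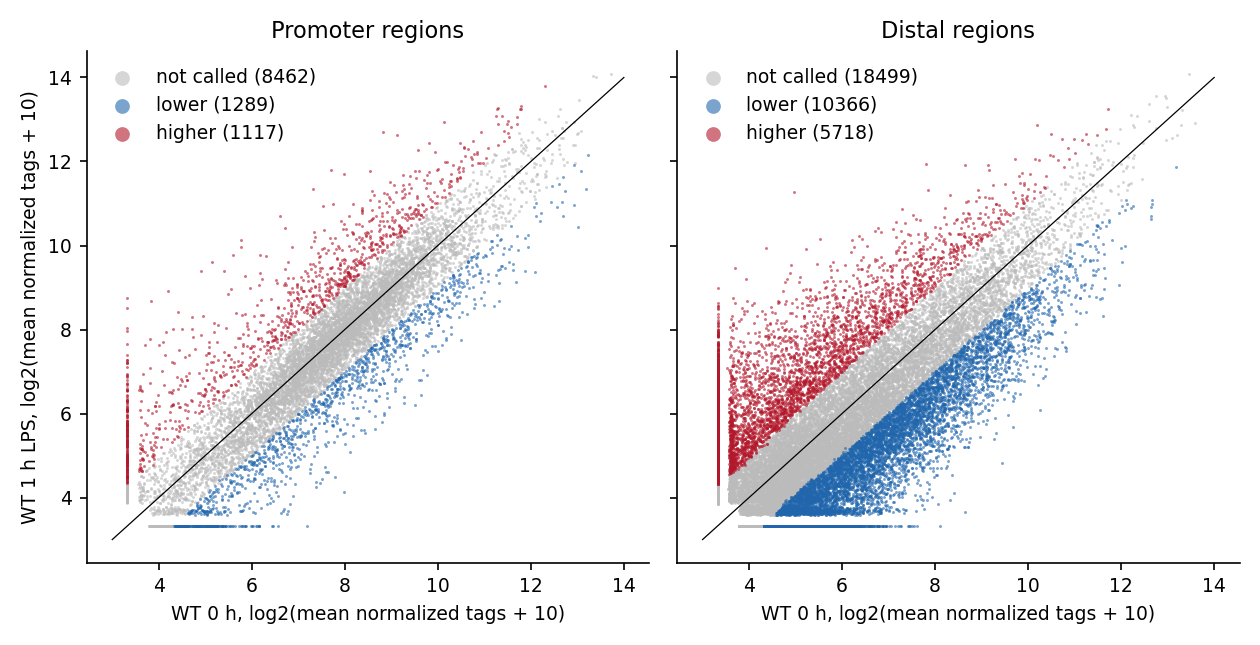
Mean H3K27ac of 3 WT libraries at 0 h (x axis) against 3 at 1 h of LPS (y axis), both as log2(normalized tags + 10), for 10868 promoter and 34583 distal regions; red and blue points are regions called higher and lower, grey points are not called and the line marks equal values. Distal regions show a column of red points at the left edge, which are the 2461 regions listed at 0 in every 0 h library.

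The largest promoter gains by log2 change were found at Il34, Lad1, Rnase10, Tmem266, Tnfsf4, Cacnb3, Dnaic2 and Bcl2a1c. Il34, a ligand of the receptor CSF1R, was listed at 0 in the 3 libraries at 0 h and held 407.6, 421.7 and 437.1 normalized tags at 1 h (chr8:110805399-110814555, 9156 bp, over the gene start and parts of the neighbouring genes Gm15895 and Sf3b3). Tnfsf4, which encodes the costimulatory ligand OX40L, was listed at 0 before LPS and held 262.9, 256.0 and 237.8 tags after it (chr1:161392357-161401488). Lad1, Cacnb3 and, in 2 of 3 libraries, Rnase10 were likewise listed at 0 at 0 h. Bcl2a1c belongs to the A1 family of anti-apoptotic BCL2 proteins, whose near-identical copies can share reads. It held 21.8, 19.9 and 18.5 tags before and 640.0, 679.5 and 682.8 after LPS (log2 change 4.49, SE 0.07, limma adjusted p 2e-08). In each of these regions every 1 h library lay above every 0 h library. The gain at several of them was not kept: at 18 h the mean was 2.21 tags at Il34, 19.3 at Tnfsf4, 6.21 at Bcl2a1c and 0 at Lad1 and Cacnb3.

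The largest promoter losses were near C4b, Npas4, Nxpe5, Kcnip3, Pdcd4, Pnisr, Dmpk and Ntpcr. The C4b region (chr17:34745358-34748330), 1.48 kb from the start of this complement gene and over the pseudogene Stk19-ps1, held 254.4, 224.5 and 248.6 tags at 0 h and 15.9, 0 and 6.7 at 1 h (log2 change -3.95, SE 0.31, adjusted p 1.3e-05). The Ntpcr region covered the gene start and had 797.9, 804.0 and 776.3 tags against 92.6, 70.2 and 68.0 (log2 change -3.22, SE 0.10, adjusted p 1.3e-07). Pdcd4, a translation inhibitor that is itself a target of the microRNA miR-21, went from 154.5, 197.0 and 165.5 to 8.1, 0 and 26.8. The groups did not overlap in any of these regions. The Npas4, Kcnip3 and Pnisr regions lay 2.01, 0.423 and 2.33 kb from the gene start and did not cover it.

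Distal gains were led by a region of 23881 bp that contains Mir155 and Mir155hg (chr16:84697374-84721255). Its nearest protein-coding start is that of Mrpl39, 14.5 kb away, whose 3′ part it also overlaps. miR-155 is a microRNA that LPS induces in macrophages. The region held 18.1, 27.9 and 17.3 normalized tags at 0 h and 2451.3, 2523.3 and 2472.9 at 1 h, a log2 change of 6.34 (SE 0.12, adjusted p 2.6e-08), and at 18 h it still held 2392 ± 109 (SD, n = 3). A region within Nfkb1, 16.0 kb from its start (chr3:135662207-135675545, over introns and exon sequence), rose from 8.8, 0 and 0 to 696.8, 696.9 and 686.8 tags, and at 18 h held 188 ± 19.2. The other named distal gains lay in introns of Arhgap15, Alpk2, Trps1 and Ecpas, over Chd9 with Rbl2 as the nearest start, and between genes near Btla. Of these, Arhgap15, Btla, Ecpas and Rbl2 were listed at 0 in all 0 h libraries and held means of 494, 386, 366 and 365 tags at 1 h. The Trps1 region went from a mean of 5.38 to 577 and was at 10.2 by 18 h.

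Among the named distal losses, the region in an intron of Slco2b1, an organic anion transporter, held 670.3, 689.6 and 696.3 tags at 0 h and 24.1, 30.3 and 0 at 1 h (chr7:99672102-99682307, log2 change -4.86, SE 0.47, adjusted p 4.3e-05). The log2 change of the Slco2b1 region was -4.23 without replicate 3 at 1 h, the library in which it was listed at 0. The region near Rfpl4 (chr7:5098635-5103786) fell from 369.6, 386.3 and 414.8 to 7.8, 0 and 0. A pair of regions near Nyx on the X chromosome, 33.6 and 48.9 kb away, held means of 185 and 264 tags at 0 h. The farther of them overlaps the gene Cask, including exon sequence. Both were listed at 0 in all 1 h libraries, and so was a region 18.1 kb from the start of Hpgd. Hpgd encodes the enzyme that inactivates prostaglandins, and its region held 177 ± 7.69 tags at 0 h (SD, n = 3). The remaining ones lay near Tmem114 (863 kb from the start), Msln and Gal3st2b. At 18 h the regions near Tmem114, Gal3st2b and Hpgd were listed at 0 and the 2 near Nyx held 5.87 and 0, whereas that near Rfpl4 held 105.

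Gene groups were examined next at the region that overlaps each gene start most. The lists had been drawn up with earlier results of these data known, so their counts describe these genes and are read against the shares of all promoter regions that rose (10.3%) or fell (11.9%) and a median promoter change of -0.06. Several regions cover more than 1 gene start, among them those of Ccl5, Il1a, Ifit1, Isg15, Irf1, Socs3, Itgam, Lyz2, Apoe and Trem2, and their values are not those of a single gene.

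Cytokine and chemokine genes gained the mark. A promoter region was tested for 17 of 18 genes in 15 distinct regions, since Cxcl1 and Cxcl2, and Ccl3 and Ccl4, share a region. It rose for 15 genes (13 regions) and fell for none, with a median log2 change of 2.20. Ccl5, a chemokine for T cells and monocytes, went from 486.3, 439.2 and 395.2 tags to 6483.7, 6845.5 and 6619.9 (log2 change 3.89, SE 0.07, adjusted p 2.2e-08). Ifnb1, the interferon that LPS induces through TRIF, went from 47.7, 53.2 and 33.2 to 1093.3, 1120.8 and 1101.4 (4.37, SE 0.13, adjusted p 9.9e-08). Il12b, the p40 subunit of IL-12 and IL-23, rose from 6.4, 0 and 5.8 to 199.6, 223.5 and 208.6. Cxcl10 rose from a mean of 95.2 ± 15.4 to 1357 ± 78.2, Il6 from 20.2 ± 2.35 to 223 ± 7.49, Il1b from 323 ± 25.4 to 1828 ± 16.0 and Il1a from 261 ± 9.10 to 1652 ± 89.0 (SD, n = 3). Groups did not overlap for any of these genes. Tnf rose by 1.47 from 3534 to 9798 tags, but its region of 42408 bp covers 6 gene starts including its neighbours, so that the value is not that of Tnf alone. Il10 (log2 change 0.73) and Lif (0.61) did not pass the threshold, and Csf3 had no promoter region. When regions closer than 1000 bp were merged, the region of Ccl3 and Ccl4 no longer passed (log2 change 0.67) and that of Lif did (1.76).

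NF-kB subunits and inhibitors followed the same direction, with 10 of 13 promoter regions higher, none lower and a median of 1.67. The inhibitor Nfkbia (IkB alpha), a direct NF-kB target that restrains NF-kB, held 850.4, 816.5 and 922.4 tags before and 2709.3, 2753.2 and 3125.6 after LPS (1.72, SE 0.07, adjusted p 2.9e-07). Nfkbie rose from 233 ± 20.5 to 1529 ± 73.5 and Nfkbiz, an atypical nuclear IkB protein needed for Il6 and Il12b transcription, from 203 ± 18.2 to 1063 ± 53.5 (SD, n = 3). Of the subunits, Nfkb1 (1.64), Nfkb2 (2.01), Rel (1.79) and Relb (1.36) rose, while Rela, the main transactivating subunit, changed by 0.46 and did not pass. Nfkbid (-0.68) and Bcl3 (0.89) did not pass either, and Bcl3 passed after centring (1.16).

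Interferon-response genes rose without exception: all 10 genes, in 9 distinct regions, were higher, with a median of 2.07. Ifit1, an antiviral RNA-binding protein, went from 56.7, 61.6 and 69.0 tags to 862.3, 866.6 and 846.3 (3.59, SE 0.07, adjusted p 2.7e-08). Rsad2 and Cmpk2, neighbours that share a region, went from 370.9, 378.6 and 345.6 to 3500.4, 3575.3 and 3459.1 (3.23, SE 0.04, adjusted p 1.8e-08). Oasl1 changed by 2.98, Isg15 by 2.52, Irf7 by 2.07 and Irf1, a transcription factor of the same response, by 1.53. At 18 h the mean was 2300 tags at Ifit2 against 813 at 1 h, and 5340 at Rsad2 against 3512. Ifit1, Ifit3, Isg15, Irf7 and Oasl1 also had higher means at 18 h. The means of Mx1 (765 ± 157 against 652 ± 23.4, SD, n = 3) differed by less than the spread at 18 h, and Irf1 had a lower mean (3730 against 4144). These differences were not tested.

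Among feedback regulators and inducible enzymes, 9 of 15 promoter regions rose, none fell and the median was 1.62. Acod1, which makes itaconate, went from 549.1, 564.5 and 536.0 tags to 6329.8, 6381.6 and 6289.2 (3.50, SE 0.03, adjusted p 6.9e-09). Socs3, which restrains cytokine receptor signalling, went from 1077.8, 1084.4 and 1158.6 to 7595.9, 7906.7 and 7874.8 (2.80, SE 0.04, adjusted p 1.8e-08). Sod2 rose by 3.26, Gadd45b by 2.38, Dusp2 by 1.81 and Pim1 by 1.77. Nos2, the inducible nitric oxide synthase, was listed at 0 before LPS and held 93.7, 67.7 and 70.9 tags at 1 h; at 18 h its mean was 443. Zfp36 (0.31), Dusp1 (0.50) and Dusp4 (-0.43) did not pass the threshold.

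**Figure D2:**
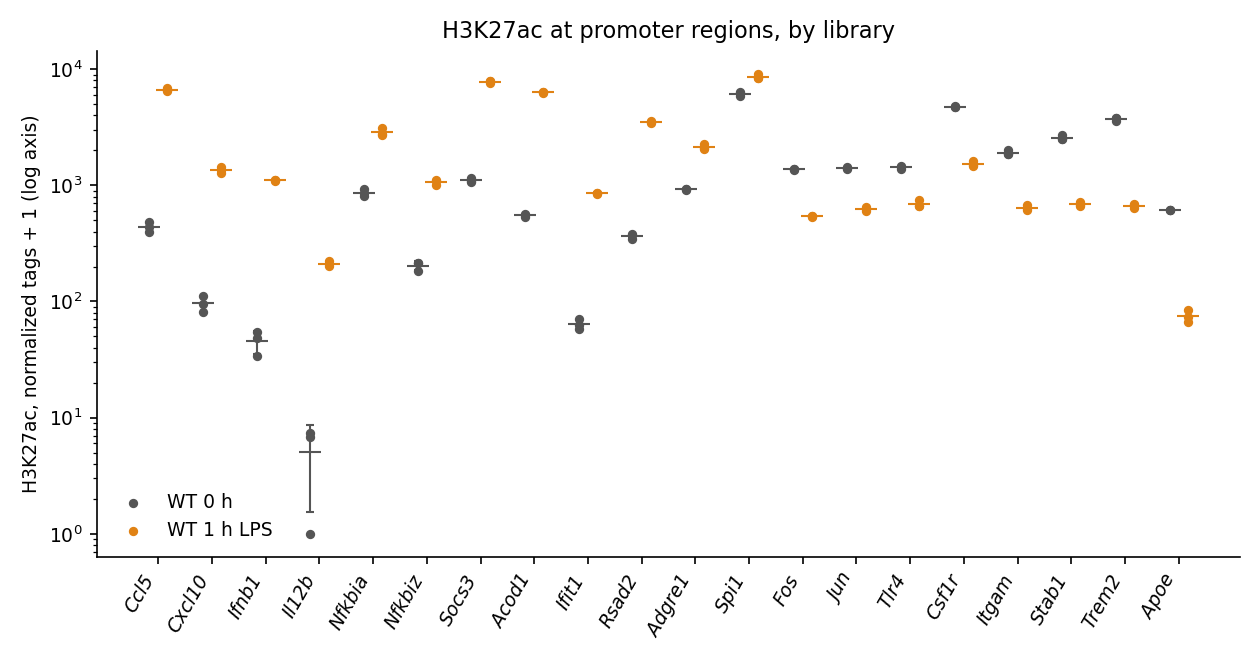
H3K27ac at 20 promoter regions, as normalized tags + 1 on a log axis, with 1 point for each of 3 WT libraries at 0 h (grey) and 3 at 1 h of LPS (orange); the dash and bar give the mean and SD. The groups lie apart at every gene shown, with Ccl5 to Spi1 higher and Fos to Apoe lower at 1 h; the change of Spi1 (log2 change 0.48) did not reach the threshold.

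Immediate-early transcription factors are known for transcription within minutes of a stimulus. Of 19 promoter regions only that of Batf rose (1.75), 4 fell and 14 were not called, with a median of -0.02 that lies near the -0.06 of all promoter regions. Fos held 1388.3, 1361.2 and 1388.7 tags at 0 h and 541.2, 535.4 and 547.4 at 1 h (-1.33, SE 0.03, adjusted p 4.4e-08). Jun held 1372.4, 1399.2 and 1439.4 against 620.1, 604.6 and 647.3 (-1.16, SE 0.04, adjusted p 1.5e-07). At the outermost annotated start of Nr4a1, which encodes Nur77, a weakly marked region went from 78.1, 56.4 and 74.4 to 14.8, 31.7 and 18.9 (-1.35, SE 0.21, adjusted p 7.4e-04). Any other start of Nr4a1 was not read here. Egr3 changed by -1.15 (-0.96 after quantile normalization). The groups did not overlap at any of these 4 genes. After centring, the changes of Jun (-0.89) and Egr3 (-0.89) fell short of the threshold, and with a pseudocount of 50 those of Egr3 (-0.94) and Nr4a1 (-0.74). Junb (0.64), Klf6 (0.26), Egr2 (0.57) and Klf4 (-0.75) were not called, but of the distal regions nearest to Klf6 20 of 61 rose and none fell, and of those nearest to Klf4 16 of 24 fell and none rose.

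Of the 14 promoter regions of macrophage identity genes 7 fell, 1 rose and 6 were not called, with a median of -0.96. Csf1r, the receptor for the growth factor that macrophages depend on, went from 4681.1, 4683.2 and 4782.9 tags to 1618.6, 1458.4 and 1496.2 (-1.62, SE 0.04, adjusted p 5.4e-08). Itgam (CD11b) went from 1916 ± 94.0 to 638 ± 31.2, Lyz2 (lysozyme) from 2736 ± 67.6 to 974 ± 55.7 and Fcgr1, a high-affinity IgG receptor, from 896 ± 10.7 to 339 ± 31.9 (SD, n = 3). The transcription factors Cebpa (-1.33), Irf8 (-1.24) and Runx1 (-1.51) fell, the value of Irf8 reaching only -0.97 after centring. Lyz2 was at -0.98 when regions closer than 1000 bp were merged. Spi1, which encodes PU.1, was not called (0.48), and Adgre1 (F4/80) rose from 923 ± 5.57 to 2141 ± 104 (SD, n = 3).

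Among genes of efferocytosis and lipid handling, Apoe and Trem2 had the lowest log2 changes of any listed gene. Apoe, the apolipoprotein that macrophages secrete with cholesterol, went from 610.5, 607.3 and 607.9 tags to 72.6, 65.9 and 84.1 (-2.88, SE 0.08, adjusted p 8.3e-08). Trem2, a lipid-sensing receptor, went from 3594.8, 3786.8 and 3781.6 to 690.1, 632.8 and 674.9 (-2.47, SE 0.04, adjusted p 2e-08). Stab1, a scavenger receptor, changed by -1.89, and Pparg, a nuclear receptor of lipid metabolism, by -1.66. In all, 5 of 14 promoter regions fell and 1 rose, with a median of -0.58. The fifth loss, Cx3cr1 (-1.56), rests on a weak region of 44.2 ± 8.16 against 9.90 ± 8.97 tags (SD, n = 3) and did not pass with a pseudocount of 1 (adjusted p 0.067) or of 50. The gain was at Msr1, a scavenger receptor (1.05), and was 0.88 after quantile normalization. Mertk (-0.57), Mrc1 (-0.84) and Nr1h3 (0.84) were not called, although Nr1h3 passed after centring (1.11). At 18 h Apoe was at 573 tags, close to its 609 at 0 h, and Trem2 at 2040.

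In the pathway that senses LPS, 4 of 14 promoter regions rose, 1 fell and the median was 0.71. Tlr4 itself held 1376.8, 1462.3 and 1451.8 tags before LPS and 668.3, 663.1 and 743.1 after it (-1.04, SE 0.05, adjusted p 1.1e-06), a change that missed the threshold after centring (-0.77), with a pseudocount of 50 (-0.999), with regions merged within 1000 bp (-0.998) and with only the deepest 1 h library (-0.94), an alternative chosen after seeing the data. Tlr2 rose from 292 ± 28.2 to 1461 ± 75.6 and Tab2, an adaptor of the kinase TAK1, from 894 ± 35.3 to 5591 ± 174 (SD, n = 3). Irak3, an inhibitory kinase homologue, rose by 1.68 and Irak2 by 1.19, the latter at 0.99 after quantile normalization. The co-receptors Cd14 (0.61) and Ly96 (0.96) and the adaptor Myd88 (0.52) were not called, while Ly96 passed after centring (1.23), with the wider merging (1.05) and with only the deepest 1 h library (1.004). Of 8 reference genes 7 were not called, with Actb at 0.22, Gapdh at -0.53 and B2m at 0.70, whereas Hprt fell from 351 ± 24.3 to 145 ± 20.3 (SD, n = 3; -1.22, and -0.95 after centring).

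**Figure D3:**
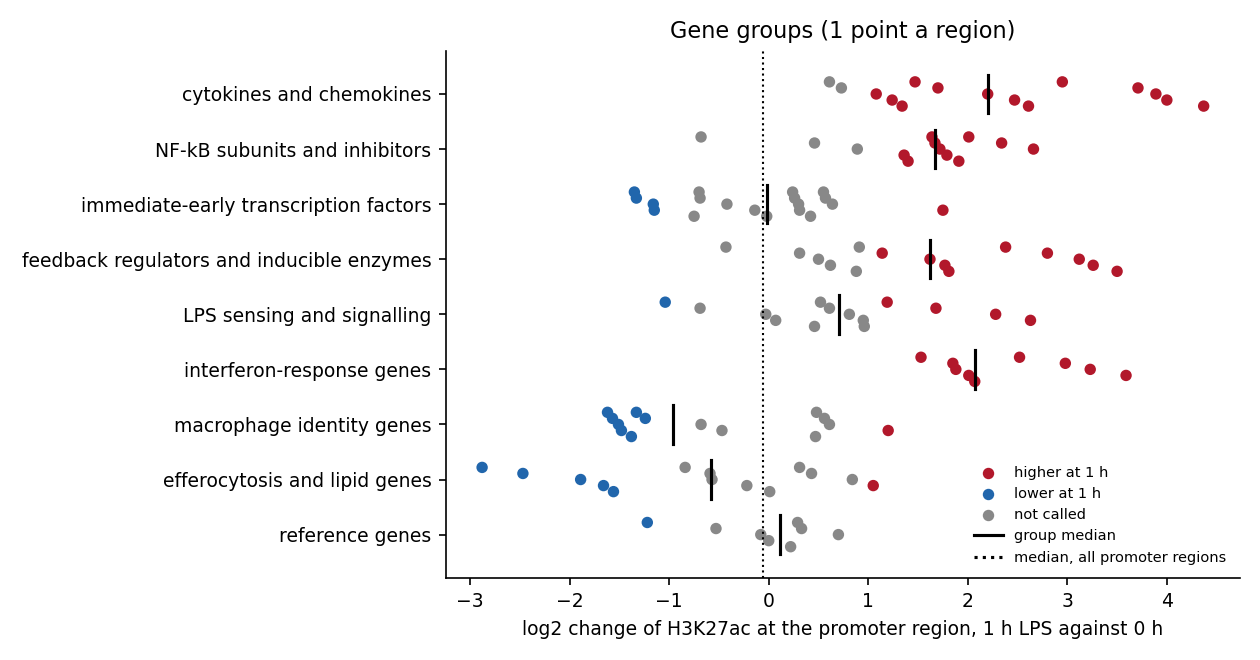
Log2 change of H3K27ac (1 h of LPS against 0 h, on the log2(normalized tags + 10) scale) at the promoter regions of 9 gene groups, with 1 point per region, red for higher, blue for lower and grey for not called; the short black line is the group median and the dotted line the median of all promoter regions tested (-0.06). The medians of interferon-response (2.07), cytokine (2.20) and NF-kB genes (1.67) lie right of the dotted line and those of macrophage identity (-0.96) and lipid genes (-0.58) left of it, with members of the last 2 groups, such as Adgre1 and Msr1, on the right and Nfkbid on the left.

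Distal changes were then counted by the nearest gene start, beside 16.5% higher and 30.0% lower of all distal regions. Such counts grow with the number of regions that a gene is nearest to. Zeb2, a zinc finger transcription factor, had the most higher regions, 23 of the 69 for which it was the nearest gene (33.3%), spread over 1.67 Mb. Their summed means went from 2330 to 8180 normalized tags, while the Zeb2 promoter region changed by 0.43 and was not called. St3gal1 (21 of 37), Klf6 (20 of 61), Cited2 (19 of 68), Cd47 (18 of 31), Pou1f1 (16 of 18), Etv6 (15 of 27), Foxp1 (15 of 41), Inhba (15 of 20) and Nr3c1, the glucocorticoid receptor (15 of 30), followed. Their shares ran from 27.9% at Cited2, which also had 9 lower regions, to 88.9% at Pou1f1. Of these 10 genes only Inhba, which encodes the activin A subunit, had a promoter region that also rose (1.59), and Pou1f1 had no promoter region. The region at the outermost start of Cd47 held only 4.65 tags at 0 h and 0 at 1 h, and other starts were not read. After centring, those of St3gal1 (1.18) and Etv6 (1.03) passed as well. At Inhba the summed means of its 15 higher regions went from 77.2 to 1340 tags, and 3 other regions were lower. Around the listed genes, 33 distal regions rose and 2 fell of 54 near cytokines and chemokines, 30 and 3 of 65 near NF-kB genes, 6 and 1 of 14 near interferon-response genes and 18 and 9 of 71 near feedback regulators and enzymes. Near immediate-early genes 32 rose and 40 fell of 158, near LPS sensing genes 12 and 20 of 58, near macrophage identity genes 11 and 28 of 96, and near efferocytosis and lipid genes 8 and 24 of 77. Members of a list differed. Among NF-kB genes, 8 regions were higher and 0 lower of 12 at Tnfaip3, and 0 higher and 1 lower of 2 at Rela. Among feedback regulators, 3 were higher and 0 lower of 5 at Dusp2, and 1 higher and 3 lower of 22 at Dusp4.

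The most lower distal regions were nearest to Nrp1 (21 of 48), Zfp386 (20 of 34), Dusp6 (17 of 28), Rasa1 (17 of 18), Armc2 (16 of 19), Klf4 (16 of 24), Gadd45g (15 of 22), Mef2c (15 of 33), Arrdc3 (14 of 18) and Cpeb2 (14 of 20). Their shares ran from 43.8% at Nrp1 to 94.4% at Rasa1, beside 30.0% of all distal regions. At Nrp1, which encodes the co-receptor neuropilin-1, the summed means of the lower regions went from 7940 to 1720 tags and the promoter region fell as well (-1.73). Promoter regions also fell at Dusp6, a phosphatase that acts on ERK (-1.86), Rasa1, a GTPase-activating protein of RAS (-1.68), Arrdc3 (-1.82) and Cpeb2 (-1.07). That of Cpeb2 did not pass after centring (-0.80) or with only the deepest 1 h library (-0.98). Mef2c, a transcription factor of the myeloid lineage, had no region at its outermost annotated start. Its lower distal regions went from 7410 to 2320 tags in sum. Whether any of these regions covers another start of Mef2c was not examined.

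**Figure D4:**
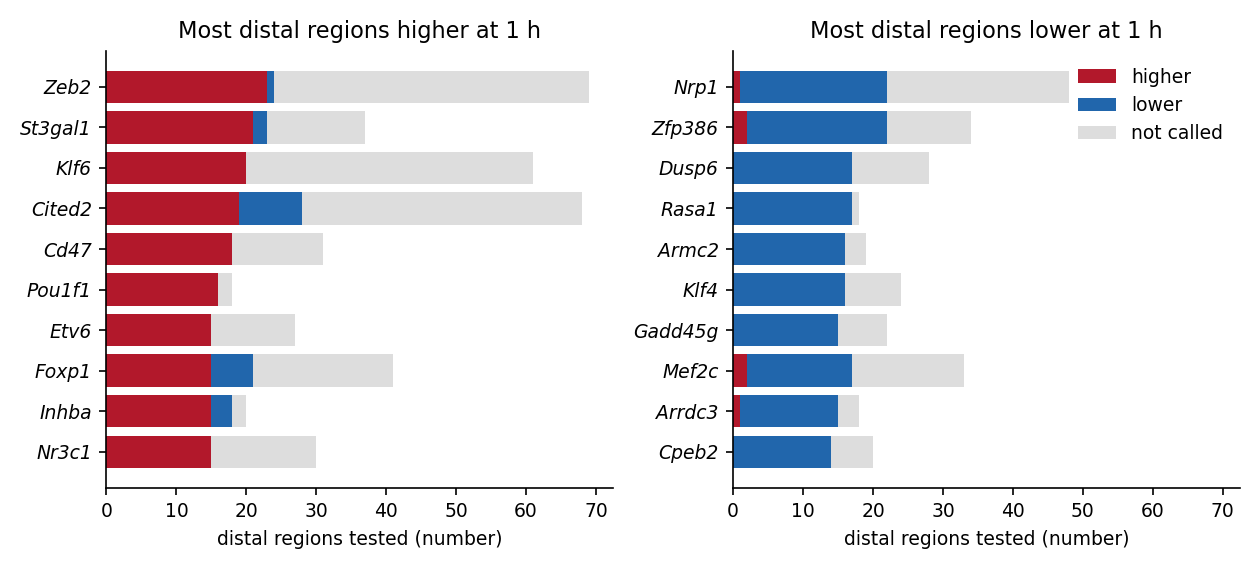
Number of distal regions for which each gene has the nearest start (x axis), divided into regions higher (red), lower (blue) and not called (grey) at 1 h of LPS; the left panel shows the 10 genes with most higher and the right panel the 10 with most lower regions. Zeb2 has 23 higher regions of 69 and Rasa1 17 lower regions of 18.

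Distal regions were also set beside the promoter of their nearest gene. Of the 5718 higher distal regions, 22.1% had a nearest gene with a higher promoter region and 3.46% one with a lower region, against 10.1% each over all distal regions tested. Of the 10366 lower distal regions, 3.98% had a nearest gene with a higher and 17.7% one with a lower promoter region. For most, 55.0% and 54.2%, the promoter region was not called. These are descriptions, since neighbouring regions share a nearest gene and the values come from the same libraries.

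Sequence composition was then described for the central 1000 bp of regions of at least that length. Matches to the AP-1 motif TGANTCA were as common in distal regions that rose (39.2% of 5524) as in those that fell (38.9% of 10002) and in those not called (39.1% of 14387). The kappaB consensus was found in 18.3% of higher, 7.00% of lower and 10.4% of uncalled distal regions, and 10.7% of all. The ISRE letters were found in 26%, 13.3% and 19.1%, and in 18.4% of all. At promoters the order was the same for kappaB (21.6%, 10.8% and 15.1%; 15.3% of all) and for ISRE (21.7%, 10.6% and 11.5%; 12.5% of all). AP-1 there was at 25.7% of higher and 26.3% of lower regions, both above the 18.7% of uncalled ones, whose GC content was also higher (median 55.5% against 49.3% and 49.7%). CRE (TGACGTCA, which does not overlap the AP-1 letters) was rare at distal regions (0.919% of all) and was found in 2.1% of higher, 1.03% of lower and 3.65% of uncalled promoter regions. CArG matches ranged from 4.0% to 5.80% in all classes. In the 250 bases before all 32851 RefSeq gene starts the shares were 3.90% for kappaB, 2.98% for ISRE and 6.75% for AP-1. The Cxcl10 promoter shown above held 2 kappaB matches, 1 ISRE match and 1 AP-1 match, that of Rsad2 held 1 ISRE and 1 AP-1 match, and those of Ifnb1 and Nfkbia 1 kappaB match each.

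Some regions held many ISRE matches in a run, as at the region in Ecpas, where 32 overlapping matches lie within 200 bases of a simple tandem repeat and are not separate elements. In 148 higher distal regions the central 1000 bp held 4 or more matches (2.68%), compared with 11 lower (0.110%) and 34 uncalled regions (0.236%). The region near Rbl2 held 27 matches in such a repeat outside its central part. Between 1 and 3 matches were found in 23.3% of higher, 13.2% of lower and 18.9% of uncalled distal regions. The median over these 148 regions was 0 in each 0 h library and 46.8, 53.1 and 48.6 tags in the 1 h libraries. Over all higher distal regions of 1000 bp or longer it was 6.4, 5.83 and 0 at 0 h and 55.2, 59.9 and 56.5 at 1 h, and being called higher sets part of this pattern. Of the 148 regions 56.1% overlapped an input region, against 74.1% of all higher distal regions of 1000 bp or longer.

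**Figure D5:**
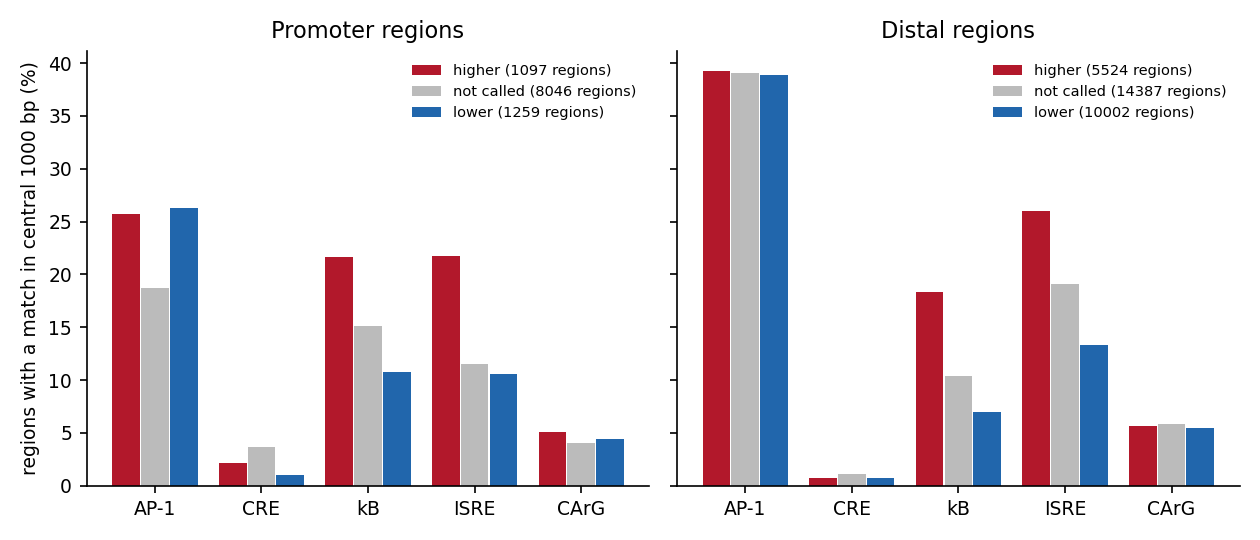
Share of regions (percent) with at least 1 match to each motif in their central 1000 bp, for promoter (left) and distal regions (right) that were higher (red), not called (grey) or lower (blue) at 1 h of LPS; kB stands for the kappaB consensus. kB and ISRE bars are tallest for higher regions in both panels, and the AP-1 bars of distal regions are level at 39.2%, 39.1% and 38.9%.

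RNA polymerase II (Pol II) was measured in separate WT libraries of the same times, 3 per group. Over genes, from 500 bp before the start to 500 bp past the end, Pol II was higher at 1 h at 1365 of 13240 genes (10.3%) and lower at 5732 (43.3%), around a median log2 change of -0.82. Pol II was not centred or quantile-normalized, so how this balance depends on scaling was not tested. Of all 1086 genes with a higher H3K27ac promoter region, of which 995 could be tested, Pol II rose at 662 (61.0%) and fell at 39 (3.59%). Of all 1247 with a lower promoter region, of which 1137 could be tested, it rose at 18 (1.44%) and fell at 927 (74.3%). Of all 21897 genes, tested or not, 6.23% were higher and 26.2% lower, and of the 8197 with an uncalled promoter region 5.61% and 40.5%. All 10 interferon-response genes, 17 of 18 cytokine and chemokine genes, 11 of 13 NF-kB genes and 11 of 15 feedback regulators and enzymes were higher in Pol II, and none of these lists had a lower gene. Of 19 immediate-early genes 4 were higher and 8 lower, of 14 LPS sensing genes 5 and 2, of 14 macrophage identity genes 3 and 6, and of 15 efferocytosis and lipid genes 3 and 6. The lower counts of the immediate-early, identity and lipid genes lie near the 43.3% of all genes tested. Of 8 reference genes 2 were lower. Acod1 went from 117 to 24300 normalized Pol II tags, Ccl5 from 5.49 to 5300 and Nfkbiz from 612 to 13900, and among the losses Trem2 went from 1490 to 21.2 and Pparg from 2750 to 20.2. Pol II and H3K27ac took opposite directions at Cx3cr1, where Pol II rose from 649 to 6120 tags while the weak promoter region fell, and at Lif Pol II was listed at 0 before LPS and held 280 tags after it with no call for the promoter region. Within 500 bp of the start only, 490 of 11177 genes were higher and 1691 lower, which is 2.24% and 7.72% of all 21897 genes. Pol II then rose at 328 of the 1086 genes with a higher promoter region (30.2%) and fell at 542 of the 1247 with a lower one (43.5%).

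The same regions were read in KO macrophages, in libraries that the choice of regions did not use. These libraries are titled KO, and their genotype label names only Cre. H3K27ac at the outermost Nr4a1 start is no check of the genotype: it was 69.4, 58.7 and 59.3 tags at 0 h and 20.8, 25.3 and 31.7 at 1 h in KO. KO replicate 1 at 1 h stands apart, since it correlated at 0.968 on average with the WT libraries at 1 h and at 0.926 with its own replicates, which correlated at 0.909 and 0.912 with WT. In KO, 4135 of 46081 regions were higher at 1 h (8.97%) and 6315 lower (13.7%). Of all 6835 regions that rose in WT, 3462 were higher in KO (50.7%), 1 was lower and 867 were found in too few KO libraries to be tested. Of all 11655 that fell in WT, 5002 were lower in KO (42.9%), 1 was higher and 92 were not tested. Over all 55565 regions the shares were 7.44% higher and 11.4% lower. A region weak at 0 h is tested mainly where it is found at 1 h, so shares of tested regions are not comparable between the 2 directions. Without KO replicate 1 at 1 h, 46.1% of the regions that rose in WT were higher and 1.33% lower, and 37.4% of those that fell were lower and 0.849% higher. Among the named regions, the mean at 1 h in KO was 1420 tags at Mir155hg, 506 at the region within Nfkb1, 191 at Il34 and 53.3 at the Slco2b1 intron. Whether the change differs between genotypes was not tested here.

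Finally, the number of regions found per library was 43805 ± 1190 at 0 h and 41713 ± 676 at 1 h (SD, n = 3), a difference of -2092 (exact two-sided permutation p 0.1, the smallest that 3 against 3 libraries allow). After a common floor of 14.5 normalized tags per kb the difference was 2589 in the other direction (exact permutation p 0.4). With the floor, the 2 shallower libraries at 1 h had 40635 and 40665 regions and the deepest one 36298, below the 36377 to 36932 of the 0 h libraries. The part of depth in this difference was not tested. The share of tags inside regions was 83.6 ± 0.75% at 0 h and 80.8 ± 1.18% at 1 h (SD, n = 3; exact permutation p 0.1).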

How the data were processed

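H3K27ac was measured by ChIP-seq in WT bone marrow-derived macrophages. According to the study's methods and the submitters' processing notes, the authors trimmed the reads with Skewer, aligned them with HISAT2 2.1.0 to mm10, removed duplicates and searched each library alone, without its input, with HOMER in its mode for broad marks. Per the file headers, 500 bp windows passing a Poisson p of 0.001 were stitched within 1000 bp. The deposited signal is each region's tag count scaled by the authors to 10000000 tags. Other columns of the files were not used.

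Overlapping regions of the 6 libraries were merged (pandas 2.3.3, numpy 2.4.6, Python 3.11.15) and the signal was summed per library. Groups were taken from the sample titles. Log2(signal + 10) was compared with limma 3.58.1 (R 4.3.3), with Benjamini-Hochberg adjustment over all tested regions. The script was tested on simulated data. Pol II regions were summed over genes and the KO libraries over the same H3K27ac regions, and both were compared likewise. Motif matches were counted on both strands of the RefSeq assembly GRCm38.p6. Single values were compared by an exact permutation test.

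The text names the 8 largest called increases and decreases at promoter and at distal regions, the 10 genes with most called distal regions in each direction, and members of 9 gene lists. The members and lists were chosen with earlier results of these data known. Total depth was 13505272 to 23142120 tags per library. A region absent from a file has no value below the search threshold, so small differences between weak regions were not detectable. The alternatives were other pseudocounts, filters, scalings, promoter definitions, merging distances and fits, and leaving out each library. Figures were drawn with matplotlib 3.10.9.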

Additional observations from a re-analysis of the deposited data

How the results depend on the processing

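The counts of called regions depended most on the pseudocount and on which regions were tested. The main count of 18490 called regions became 6942 with a pseudocount of 50, 8876 among regions found in all 6 libraries and 6217 without regions that overlap an input region. In the same order, higher distal regions numbered 2181, 2291 and 1553 and lower distal regions 3445, 4823 and 3979. Higher promoter regions numbered 719 with a pseudocount of 50 and 253 without input regions, and lower promoter regions 597 and 432. Centring on the median left 800 lower promoter regions. Fewer regions were tested in the last 2 filters, and the cause was not tested for the others. With the starts of all transcripts instead of the outermost start, 1464 promoter regions were higher and 1831 lower, and 5371 and 9824 distal ones. With 1000 bp around the start, 964 and 1011 promoter and 5871 and 10644 distal regions were higher and lower. Pol II calls went from 7097 over genes to 2181 around the gene start. The difference in the number of regions per library turned from -2092 to 2589 under the common density floor (exact permutation p 0.4). Other settings stayed within 1.5 times of the main count: 20177 calls with a pseudocount of 1, 17420 after quantile normalization, 17028 with regions merged within 1000 bp, 18144 to 18948 leaving out 1 library, and 17342 with only the deepest 1 h library, which was added after seeing the data.

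Same-numbered libraries of the groups did not deviate together (correlations -0.0163, 0.012 and 0.0262 over 27583 regions). No shared replicate effect was visible, but this cannot tell whether the libraries were paired by origin. With a replicate block 18698 regions were called, 6984 higher and 11714 lower.

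Of 2483 comparisons of 139 named genes and regions with an alternative, 2449 kept their call, 24 lost it, 10 gained it and 0 changed sign. Leaving out any 1 library, the block, a fit on 3 WT groups, limma without trend and the density floor changed no call among them. The changed calls not given in the report were those of Ptgs2 with a pseudocount of 50 (log2 change 0.97) and Xcr1 with regions merged within 1000 bp (1.12). Only 10 of the named regions could be tested without input regions.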

Other observations

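The 148 higher distal regions with 4 or more ISRE matches in their central 1000 bp were also listed at a median of 0 in each WT library at 18 h. Over all higher distal regions of 1000 bp or longer the medians at 18 h were 14.4, 17.8 and 18.2 tags. In the Ecpas region the matches form a simple tandem repeat, and their layout over the set was not examined. In KO the median over the same 148 regions was 0 in the 3 libraries at 0 h and 31.1, 7.32 and 12.9 normalized tags in those at 1 h, the first being the library that stood close to the WT ones. Their median length was 2249 bp, and 2598 bp over all higher distal regions of 1000 bp or longer.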
